A study of Mus musculus with 8 samples.

Results

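Naive T cells are kept in a resting state by a small set of transcription factors and surface receptors, and 9 genes of that kind were followed here in the mouse spleen. They are Tcf7, Lef1, Foxo1, Bach2 and Satb1, which encode transcription factors, Il7r and Ccr7, which encode receptors, and Dapl1 and Igfbp4, whose transcripts mark naive T cells. The genes were chosen by name for their link to naive T cell quiescence and homing, with earlier results of these data known. They were found in the count table through their Ensembl identifiers, 9 genes of 51826. All 9 passed the filter on low counts, which left 16484 genes for testing.

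As background, a naive T cell that has left the thymus recirculates between blood, spleen and lymph nodes without dividing. Survival signals come through the interleukin 7 receptor, and entry into T cell zones depends on CCR7. FOXO1, a factor held in the cytoplasm by AKT signalling, drives transcription of Il7r and Klf2, and TCF-1 and LEF-1, the products of Tcf7 and Lef1, maintain the naive and memory-like state. Several of these genes are also active in B cells or dendritic cells, Bach2, Foxo1 and Ccr7 among them, so a level in whole spleen is not a level in T cells.

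The RNA came from total splenocytes of 8 BALB/c mice, 4 labelled control and 4 labelled as treated with tRA (all-trans retinoic acid, a metabolite of vitamin A that activates nuclear retinoic acid receptors). The mice were dosed orally each day from weaning until the spleens were taken at 3 months of age, and none received pristane, the oil used to induce lupus. The sample labels give a dose of 1 mg/kg body weight of tRA for all 8 mice. The methods of the study give that dose for the tRA mice, a figure legend of the study says that the mice were given vehicle or tRA, and the grouping used here follows the sample titles. Red blood cells had been lysed. Counts on genes totaled 30919272 to 37539631 per control mouse (median 33879268) and 31810417 to 35165876 per tRA mouse (median 32899174). Levels are given as CPM, counts per 1000000 counts of a TMM-normalized library, and differences as log2 fold changes of tRA over control with standard errors (SE) from edgeR's quasi-likelihood test. An FDR is the Benjamini-Hochberg adjusted p-value over all 16484 genes of that test, called at an FDR under 0.1.

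None of the 9 genes was called. edgeR called 0 of 9, beside 0 of 16484 genes (0%), DESeq2 called 0 of 9, beside 27 of 13698 genes with an adjusted p-value (0.197%), and limma-voom called 0 of 9, beside 1 of 16484 genes (0.00607%). At an unadjusted p under 0.05 in edgeR, 2 of the 9 genes were higher with tRA, Tcf7 and Il7r, beside 485 of 16484 genes (2.94%). In the other direction there were 0 of 9, beside 585 genes (3.55%). Over both directions the count was 2 of 9, beside 1070 of all genes tested (6.49%). It was 1 without control replicate 1 (beside 877 genes) or control replicate 2 (1135 genes). It was 0 without control replicate 3 (906 genes) or tRA replicate 4 (657 genes), and 3 without tRA replicate 1 (2105 genes). The groups of 4 overlapped for all 9 genes. Every tRA mouse was above every control mouse for 0 of 9, beside 315 of all genes tested (1.91%), and below for 0 of 9, beside 269 (1.63%). The median log2 fold change of the 9 genes was 0.030 (0.0015 without tRA replicate 1 to 0.13 without tRA replicate 3), and that of all genes tested was 0.0014, with quartiles of -0.12 and 0.11. All 9 estimates were above 0, beside 50.3% of all genes tested, but 6 of them changed sign under at least 1 alternative fit or left-out mouse, so that only those of Tcf7, Il7r and Bach2 kept their direction throughout the alternatives run.

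**Figure D1:**
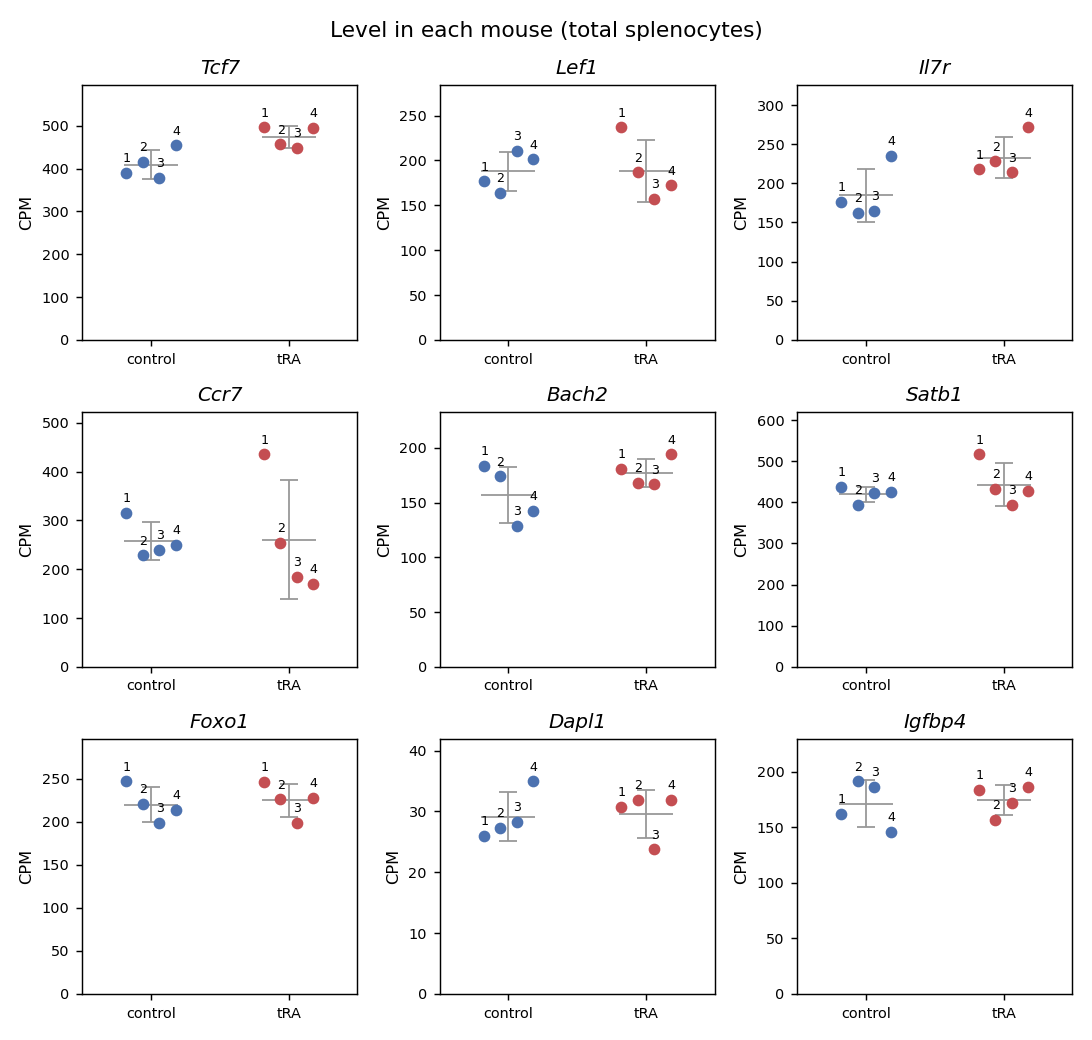
Level of each of the 9 genes in CPM (y axis, starting at 0) in 4 control mice (blue) and 4 tRA mice (red), with the replicate number above each point and grey lines for the mean and SD of each group. The groups overlap in every panel, and Ccr7 spreads most, from 169 to 435 CPM among the tRA mice.

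Tcf7 (ENSMUSG00000000782, chromosome 11 from 52252371 to 52283014, minus strand, GRCm38), the gene of TCF-1, was expressed at 390.0, 415, 377 and 454 CPM in control mice 1 to 4 and at 496, 456, 449 and 494 CPM in tRA mice 1 to 4. The highest control mouse lay just above the lowest tRA mouse, and the other 3 control mice lay below all 4 tRA mice. The group levels were 409 ± 33.6 CPM (SD, n = 4) and 474 ± 24.9 CPM (SD, n = 4). The log2 fold change was 0.21 (SE 0.0779), with a 95% confidence interval of 0.041 to 0.38, and the FDR was 0.757 (edgeR). With 1 mouse left out, it ran from 0.17 (without control replicate 3) to 0.27 (without control replicate 4).

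Lef1 (chromosome 3 from 131110471 to 131224356, plus strand) encodes LEF-1, the HMG-box partner of TCF-1. Its level was 177, 164, 211 and 201 CPM in the control mice and 237, 187, 157 and 172 CPM in the tRA mice. Replicate 1 of the tRA group was above all control mice and replicate 3 was below all of them, which left the means alike, 188 ± 21.8 and 188 ± 34.7 CPM (SD, n = 4 each). The log2 fold change was 0.00067 (SE 0.126), with a 95% confidence interval of -0.28 to 0.28. It was -0.13 without tRA replicate 1, -0.061 without control replicate 2 and -0.028 without control replicate 1.

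Foxo1 (chromosome 3 from 52268336 to 52353221, plus strand) had 247, 221, 199 and 214 CPM in the control mice and 246, 226, 199 and 228 CPM in the tRA mice. The tRA values all lay within the range of the control values. The difference on the log2 scale was 0.030 (SE 0.0865, FDR 0.960 in edgeR) and turned to -0.023 without control replicate 3 and to -0.016 without tRA replicate 1.

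Bach2 (chromosome 4 from 32238804 to 32586108, plus strand) encodes a repressor that restrains effector programs in T cells and plasma cell differentiation in B cells. Control mice 1 to 4 had 183, 174, 129 and 142 CPM, and tRA mice 1 to 4 had 181, 168, 167 and 194 CPM. Control replicates 3 and 4 were the lowest of the 8 mice, while control replicates 1 and 2 fell among the tRA mice. The log2 fold change was 0.18 (SE 0.11), with a 95% confidence interval of -0.067 to 0.42 and an FDR of 0.793 (edgeR). It was 0.085 without control replicate 3 and 0.26 without control replicate 1.

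Satb1 (chromosome 17 from 51736187 to 51833290, minus strand) encodes a chromatin organizer that is abundant in thymocytes and T cells. It was measured at 437, 393, 423 and 425 CPM in the control mice and at 517, 432, 394 and 428 CPM in the tRA mice. A single mouse, tRA replicate 1, was above the control range, and the other 3 tRA mice lay inside it. On the log2 scale the difference was 0.077 (SE 0.0881, FDR 0.872 in edgeR), and -0.0059 without that mouse.

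Il7r (ENSMUSG00000003882, chromosome 15 from 9505788 to 9530176, minus strand), which encodes the alpha chain of the interleukin 7 receptor, had the largest estimate of the 9 genes. Control mice 1 to 4 had 177, 162, 165 and 235 CPM, against 218, 228, 214 and 272 CPM in tRA mice 1 to 4. Control replicate 4 was above 3 of the 4 tRA mice, and the other 3 control mice were below every tRA mouse. The group levels were 185 ± 34.0 CPM (SD, n = 4) and 233 ± 26.5 CPM (SD, n = 4), a log2 fold change of 0.33 (SE 0.124) with a 95% confidence interval of 0.061 to 0.61 and an FDR of 0.757 (edgeR). Without control replicate 4 the log2 fold change was 0.47. It was 0.25 without tRA replicate 4 and 0.28 without control replicate 2 or control replicate 3. The FDR over all alternatives for Il7r ran from 0.314 to 0.9995.

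Ccr7 (ENSMUSG00000037944, chromosome 11 from 99144196 to 99155077, minus strand) encodes the receptor for CCL19 and CCL21, the chemokines of T cell zones. Its level was 315, 228, 240.3 and 249.98 CPM in the control mice and 435, 253, 184 and 169 CPM in the tRA mice. The tRA mice spread on both sides of the control mice, with replicate 1 above all of them and replicates 3 and 4 below all of them. The coefficient of variation was 15.1% among the control mice and 46.9% among the tRA mice, the widest of the 9 genes, and the difference in spread was not tested. Its log2 fold change was 0.011 (SE 0.256), with a 95% confidence interval of -0.55 to 0.58, and it became -0.35 when tRA replicate 1 was left out. It was also below 0 without control replicate 2 (-0.044), control replicate 3 (-0.027) or control replicate 4 (-0.0047).

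Dapl1 (chromosome 2 from 59484653 to 59505020, plus strand), a transcript enriched in naive and memory-like CD8 T cells, was the least abundant of the 9 genes in CPM. Its level was 26.0, 27.2, 28.3 and 34.9 CPM in the control mice and 30.7, 31.9, 23.8 and 31.8 CPM in the tRA mice. The lowest of the 8 mice was tRA replicate 3 and the highest was control replicate 4. The estimate of the log2 fold change was 0.021 (SE 0.12, FDR 0.982 in edgeR), and it was below 0 without control replicate 1 (-0.030), control replicate 2 (-0.0097), tRA replicate 2 (-0.021) or tRA replicate 4 (-0.017).

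Igfbp4 (chromosome 11 from 99041244 to 99054392, plus strand) encodes a secreted protein that binds insulin-like growth factors. The control mice had 162, 191, 186 and 146 CPM and the tRA mice 183, 156, 172 and 186 CPM, all of the latter within the control range. Here the log2 fold change was 0.026 (SE 0.0953, FDR 0.971 in edgeR), and -0.044 without control replicate 4, -0.00023 without control replicate 1 and -0.0062 without tRA replicate 4. Igfbp4 and Ccr7 are neighbours on chromosome 11, with 89803 bp and 1 annotated gene, Tns4, between them. Tns4 was measured at 1.30 ± 0.372 CPM (SD, n = 4) in the control mice and 1.53 ± 0.165 CPM (SD, n = 4) in the tRA mice.

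Among the 4 tRA mice, replicate 3 was the lowest for 7 of the 9 genes and replicate 1 was the highest for 5. Replicate 4 was the highest for 3 (Il7r, Bach2 and Igfbp4) and the lowest for Ccr7. Replicate 2 was the highest for Dapl1 and the lowest for Igfbp4. Whether this order differs from that of all genes was not tested. The summed level of the 9 genes was 2114, 1976, 1959 and 2102 CPM in the control mice and 2544, 2139, 1959 and 2176 CPM in the tRA mice. Replicate 1 of the tRA group was above all other mice in this sum and replicate 3 was level with the lowest control mouse.

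Levels of different genes were compared per kilobase of merged exons, in the control mice. Merged exons join all annotated transcripts of a gene, 2 for Tcf7 and 14 for Satb1, so the order depends on the annotation. In CPM per kilobase, the order was Tcf7 (156 ± 12.8, SD, n = 4), Ccr7 (131 ± 19.7), Dapl1 (42.9 ± 5.88), Il7r (39.6 ± 7.30), Igfbp4 (38.8 ± 4.84), Foxo1 (25.4 ± 2.34), Satb1 (22.1 ± 0.980), Lef1 (21.4 ± 2.48) and Bach2 (15.8 ± 2.59). The ranges of Tcf7 and Ccr7 overlapped, as did those of Dapl1, Il7r and Igfbp4 and those of Foxo1, Satb1 and Lef1 with their neighbours in the order. Between these sets the control mice did not overlap. Dapl1, the lowest in CPM, thus stood next after Tcf7 and Ccr7 per kilobase, since its merged exons span 679 bp, whereas those of Satb1 span 19027 bp.

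Total splenocytes hold several cell types, and markers of each were examined beside the 9 genes. In bulk RNA, fewer cells of a type and less RNA per cell cannot be told apart. The pan-T cell list (18 genes, all tested, with Lck the most abundant at 531 and 505 CPM in the control and tRA groups) had 13 estimates above 0, a median log2 fold change of 0.093, and 0 genes at an unadjusted p under 0.05. Its median came to 0.015 without control replicate 1 and 0.060 without control replicate 2. Its summed level was 3285, 3317, 3947 and 3866 CPM in the control mice and 3935, 3641, 3722 and 3679 CPM in the tRA mice. The tRA sums lay within the control range. Cd3d, listed first, had 91.7 ± 16.7 CPM (SD, n = 4) in the control group and 84.4 ± 11.9 CPM (SD, n = 4) in the tRA group.

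The levels of the 9 genes were then set against the pan-T cell genes of the same mouse, as log2 CPM minus the mean log2 CPM of the list. On this scale Tcf7 stood at 1.26, 1.31, 0.94 and 1.22 in the control mice and at 1.35, 1.31, 1.26 and 1.42 in the tRA mice. Il7r stood at 0.12, -0.043, -0.26 and 0.27 in the control mice and at 0.16, 0.31, 0.20 and 0.56 in the tRA mice. For both genes the groups overlapped, and the group means differed by 0.15 for Tcf7 and 0.28 for Il7r. The other 7 genes had differences of group means from -0.14 (Ccr7) to 0.13 (Bach2), with overlapping groups in each case. No test was run on these relative levels. In a separate edgeR fit with the pan-T cell mean as a covariate, 3 of the 9 genes had an unadjusted p under 0.05 in either direction. This stood beside 1313 of 16484 genes. Without the covariate the counts were 2 of 9 and 1070 of 16484 genes (6.49%). The fit with the covariate called 0 of the 9.

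The other genes of the naive T cell program were examined as a list of 11, all tested. Of these, 9 had a log2 fold change above 0, with a median of 0.18 beside 0.0014 for all genes. edgeR called 0 of them, and 6 were higher at an unadjusted p under 0.05, beside 2.94% of all genes. This list, like the 9 genes and the other lists, was chosen with earlier results of these data known. Such counts beside all genes are therefore descriptions and not independent support for a change. S1pr1, the sphingosine-1-phosphate receptor that lets lymphocytes leave lymphoid tissue, was measured at 363, 348, 372 and 348 CPM in the control mice and 454, 477, 452 and 394 CPM in the tRA mice. All 4 tRA mice were above all 4 control mice, as for 1.91% of all genes, with a log2 fold change of 0.31 (SE 0.0745) and an FDR of 0.757 in edgeR. DESeq2 called S1pr1 with an FDR of 0.0472, and the FDR over all alternatives ran from that value to 0.938. Actn1, which encodes an actin-binding protein, had 175, 172, 149.8 and 180.4 CPM in the control mice and 194, 190.3, 191 and 211 CPM in the tRA mice, again without overlap (log2 fold change 0.21, SE 0.0729).

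Of the other 4 genes at an unadjusted p under 0.05, the chemokine receptor gene Ccr9 had a log2 fold change of 0.45 (SE 0.16), Ms4a4b 0.26 (SE 0.0814), the costimulatory receptor gene Cd28 0.22 (SE 0.1; 0.15 without control replicate 3) and Rflnb 0.18 (SE 0.0783; 0.12 without control replicate 2), each with overlapping groups and an FDR of 0.757 in edgeR. Klf2, a FOXO1 target that drives S1pr1, was the most abundant gene of the list and had the largest negative estimate. It was measured at 1577, 1045, 1077 and 874 CPM in the control mice and at 1424, 818, 417 and 524 CPM in the tRA mice. The tRA group spread more widely than the control group, and the log2 fold change was -0.52 (SE 0.333, FDR 0.793 in edgeR). It was -0.96 without tRA replicate 1, -0.31 without tRA replicate 3 and -0.33 without control replicate 1.

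**Figure D2:**
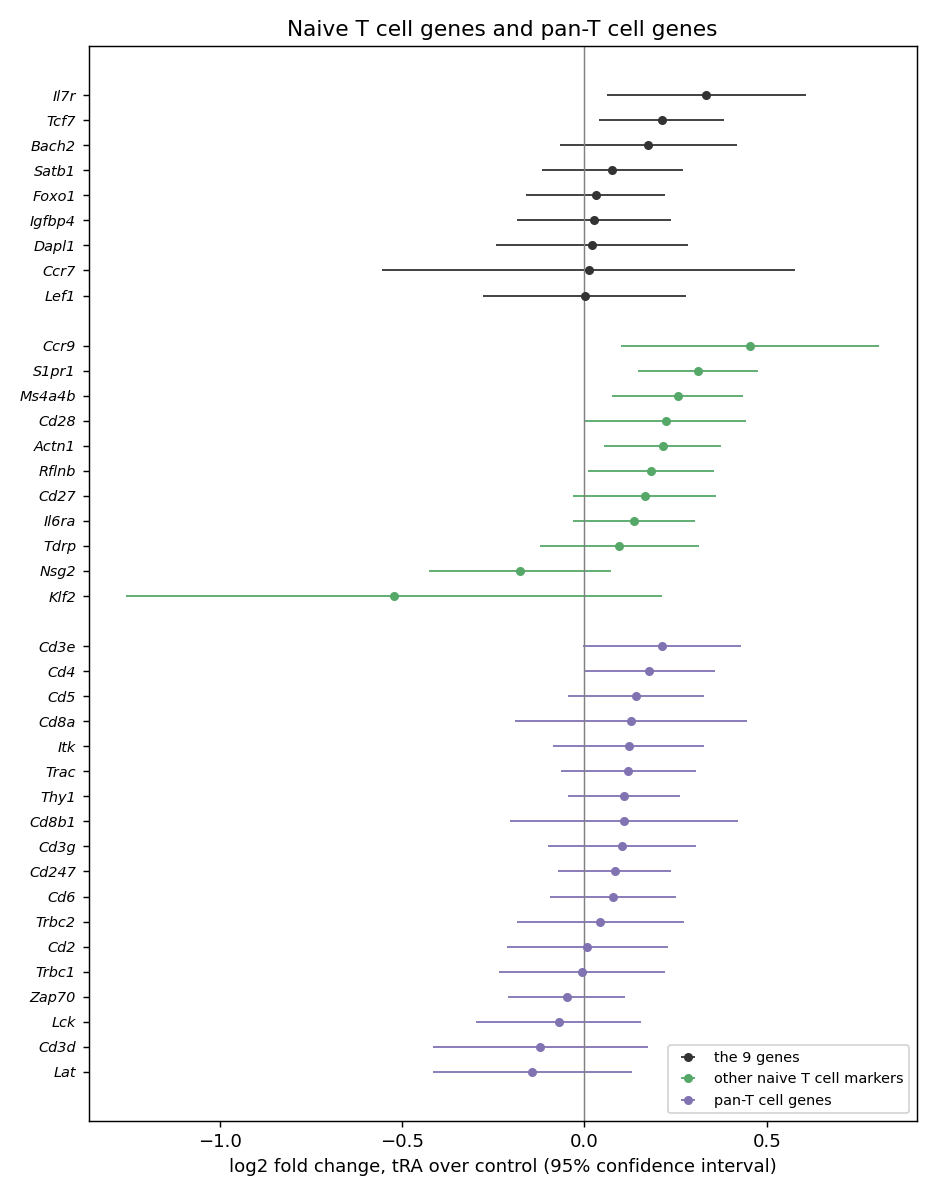
Log2 fold change of tRA over control (x axis) with 95% confidence intervals for the 9 genes (black), 11 other naive T cell markers (green) and 18 pan-T cell genes (purple), 4 mice per group, edgeR. Of the 9 genes, Il7r and Tcf7 have intervals above 0, and the intervals of the other 7 include 0.

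Genes of lymphoid homing that act with Ccr7 formed a list of 11, of which 7 were tested and 4 also stand in other lists used here. Of the 7, 5 were above 0, the median log2 fold change was 0.064 (0.017 without control replicate 1, 0.11 without control replicate 3 or 4), and 2 were higher at an unadjusted p under 0.05, beside 2.94% of all genes. They were S1pr1, counted above as well, and the integrin gene Itga4 (log2 fold change 0.30, SE 0.126, and 0.17 without tRA replicate 4). Cxcr4, a chemokine receptor gene and the most abundant of the list, had 1540.1, 1108, 952 and 1029 CPM in the control mice and 1629, 1111, 259.9 and 404 CPM in the tRA mice. Tissue-derived ligands were near the limit of counting in these cells. Ccl19 averaged 0.0148 CPM in the control group and 0.0271 CPM in the tRA group, Ccl21a averaged 0.282 and 0.166 CPM, and Ccl21b had 0 counts in all 8 mice. Each of these chemokine genes has near-identical copies in the mouse genome, so its count is uncertain.

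For the TCF and LEF family with its cofactors, all 12 genes were tested. Of these, 8 were above 0, with a median log2 fold change of 0.058 (0.028 without tRA replicate 4, 0.029 without control replicate 3, 0.092 without control replicate 1), and 1 was lower at an unadjusted p under 0.05, beside 3.55% of all genes. That gene was Tle3, a Groucho corepressor, with 256, 246, 234.5 and 246 CPM in the control mice and 234.4, 222, 209 and 219.8 CPM in the tRA mice, a log2 fold change of -0.15 (SE 0.0626, FDR 0.757 in edgeR). The groups did not overlap, by the narrow gap between tRA replicate 1 and control replicate 3, and 1.63% of all genes were likewise lower in every tRA mouse. Aes was the most abundant, at 276 and 286 CPM in the control and tRA groups. The relatives of Tcf7 and Lef1 were scarce, with Tcf7l1 at 1.22 and 1.45 CPM (log2 fold change 0.25, SE 0.218, with 0.17 and 0.40 without control replicates 3 and 4) and Tcf7l2 at 7.78 and 6.42 CPM (log2 fold change -0.28, SE 0.183). Control replicate 2 had 10.99 CPM of Tcf7l2 and the other 3 control mice 6.27 to 7.60 CPM, and without that mouse the log2 fold change was -0.066.

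Signalling through the interleukin 7 receptor was represented by 13 genes, 12 of them tested. Here 4 were above 0 and 8 below, the median log2 fold change was -0.030, and 0 reached an unadjusted p under 0.05. That median lay nearer 0 without tRA replicate 1 (-0.015), tRA replicate 3 (-0.017) or tRA replicate 4 (-0.013), and was -0.00016 with unadjusted library sizes. The cytokine gene itself, Il7, averaged 0.0817 CPM in the control group and 0.114 CPM in the tRA group and was not tested. Mcl1, a survival gene, was the most abundant at 857 and 839 CPM. The estimates ranged from -0.44 (SE 0.224) for Socs1, a suppressor of cytokine signalling, which came to -0.75 when tRA replicate 1 was left out and -0.30 when tRA replicate 4 was, to 0.066 (SE 0.0863) for the kinase gene Jak1, which turned to -0.0052 without control replicate 3.

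The FOXO family and the PI3K and AKT genes upstream of it comprised 12 genes, all tested, with 9 above 0, a median log2 fold change of 0.033 (0.012 without control replicate 3, 0.016 without tRA replicate 1) and 0 at an unadjusted p under 0.05. Pik3cd, which encodes a PI3K catalytic subunit of leukocytes, was the most abundant at 818 and 833 CPM. The estimates ranged from -0.051 (SE 0.129) for Pdpk1, which was 0.039 without control replicate 4 and 0.0026 without tRA replicate 3, to 0.13 (SE 0.107) for Tsc1, which was 0.037 without control replicate 3 and 0.080 without tRA replicate 3.

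Relatives and partners of Bach2 and Satb1 gave 9 genes, all tested, with 4 above 0, a median log2 fold change of -0.12 (-0.029 without control replicate 2) and 0 at an unadjusted p under 0.05. Hmox1, a target of BACH factors, was the most abundant at 175 and 155 CPM. Bach1 had the largest positive estimate, 0.16 (SE 0.0985), and the small MAF gene Maff the largest negative one, -0.77 (SE 0.569). Bach1 was 0.096 without control replicate 3 and 0.097 without tRA replicate 4. Maff was -1.40 without tRA replicate 1, -0.42 without tRA replicate 3, -0.48 without tRA replicate 4 and -1.39 with limma-voom. Its level was 40.3, 34.0, 27.7 and 26.8 CPM in the control mice and 39.1, 26.8, 3.50 and 6.60 CPM in the tRA mice.

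Other regulators of lymphocyte quiescence formed a list of 15, all tested, with 8 above 0, a median log2 fold change of 0.015 (-0.068 without tRA replicate 1 to 0.062 without tRA replicate 3) and 1 higher at an unadjusted p under 0.05, beside 2.94% of all genes. That gene was Klf3, a Krüppel-like repressor, with 267, 264, 231 and 261 CPM in the control mice and 284, 306, 309.9 and 352 CPM in the tRA mice. All 4 tRA mice were above all 4 control mice (1.91% of all genes), with a log2 fold change of 0.29 (SE 0.0819) and an FDR of 0.757 in edgeR. Ets1 was the most abundant, at 1306 and 1408 CPM. Binding proteins and relatives of Igfbp4 and Dapl1 gave 5 tested genes of 9, with 4 above 0, a median of 0.19 (0.087 without control replicate 4, 0.11 without control replicate 3, 0.088 and 0.12 without tRA replicates 3 and 4) and 0 at an unadjusted p under 0.05. Igf2r was the most abundant of these at 59.9 and 70.1 CPM (log2 fold change 0.23, SE 0.124, and 0.15 without tRA replicate 3), and Dap had the only estimate below 0, -0.096 (SE 0.0718, and -0.058 without tRA replicate 2). Igfbp2 had 0 counts in all 4 tRA mice and averaged 0.00677 CPM in the control group.

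Effector and memory T cell markers, the counterpart of the naive genes, comprised 19 genes, all tested, with 8 above 0 and 11 below. Of these, 2 also stand in other lists used here, Eomes with the natural killer cell genes and Prdm1 with the plasma cell genes. The median log2 fold change was -0.032 (-0.12 without control replicate 1 to 0.051 without control replicate 2). The natural killer cell list had the same median, and the 2 lists are not independent. At an unadjusted p under 0.05, 1 gene was higher and 1 lower, beside 2.94% and 3.55% of all genes. Cd44, listed first and the most abundant, had 164 ± 9.18 CPM (SD, n = 4) in the control group and 184 ± 14.5 CPM (SD, n = 4) in the tRA group. It was the 1 gene higher, with a log2 fold change of 0.17 (SE 0.0734) and an FDR of 0.757 in edgeR, unlike the 11 genes below 0. The summed level of the list was 1027, 1168, 1101 and 1085 CPM in the control mice and 1113, 1105, 996 and 987 CPM in the tRA mice, so the groups overlapped.

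B cell genes, 13 in number, had a median log2 fold change of -0.023 (-0.088 without control replicate 3 to 0.071 without control replicate 1) and 0 at an unadjusted p under 0.05. Their summed level was 8341, 7817, 7438 and 7019 CPM in the control mice and 7549.7, 7763, 7719.9 and 7701 CPM in the tRA mice, within the control range. Cd79a was the most abundant at 1396 and 1271 CPM in the control and tRA groups. Markers of mature and migratory dendritic cells, which also express Ccr7, had 1 estimate above 0 among the 9 of 10 genes tested, a median of -0.16 (-0.079 without control replicate 4, -0.091 without tRA replicate 1), and 1 gene lower at an unadjusted p under 0.05, beside 3.55% of all genes. Their summed level was 281, 290.5, 278 and 329 CPM in the control mice and 261, 265, 278 and 279 CPM in the tRA mice. Fscn1, listed first, stood at 19.5 and 15.9 CPM, and Relb, the most abundant, at 97.1 and 86.7 CPM.

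Of the remaining cell type lists, natural killer cell genes had a median log2 fold change of -0.032 (7 of 8 tested, -0.095 without control replicate 1 to 0.071 without control replicate 3; Gzma at 150.2 and 137 CPM, Ncr1 at 49.0 and 59.0 CPM), erythroid genes 0.27 (10 of 11 tested, -0.28 without tRA replicate 3 to 0.51 without control replicate 3, and 0.14 with limma-voom; Hbb-bs at 837 and 1142 CPM, Hba-a1 at 301 and 405 CPM) and plasma cell genes -0.17 (9 of 9 tested, 4 of them above 0 and 5 below, with 0 higher and 4 lower at an unadjusted p under 0.05, beside 3.55% of all genes lower; Jchain at 609 and 443 CPM). Ahsp, the erythroid gene that was not tested, had no match among the gene symbols used. Neutrophil precursor genes were all 12 below 0, with a median of -0.85 and 10 lower at an unadjusted p under 0.05, beside 3.55% of all genes. Their summed level was 572, 721, 757 and 652 CPM in the control mice and 264, 328, 359 and 516 CPM in the tRA mice, without overlap. Ngp, the most abundant, stood at 325 and 171 CPM, and Camp, listed first, at 71.1 and 30.2 CPM. Stromal cell genes were near 0, with a sum from 5.22 to 13.3 CPM in the control mice and 6.80 to 13.0 CPM in the tRA mice, Sparc the most abundant at 3.02 and 3.93 CPM, Col1a1 at 0.596 and 0.513 CPM, and a median of 0.15 over the 6 of 9 genes tested (-0.36 without tRA replicate 3 to 0.42 without control replicate 3, and -0.074 with limma-voom).

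Immediate early genes, which respond within minutes to stimulation and to tissue handling, are given here beside Ccr7. All 17 were tested, all 17 estimates were below 0, the median was -0.46, and 6 were lower at an unadjusted p under 0.05, beside 3.55% of all genes. The median was -0.92 without tRA replicate 1, -0.29 without tRA replicate 3 and -0.77 with limma-voom. Their summed level was 19544, 17844, 18582 and 15715 CPM in the control mice and 17691, 14082, 6259 and 8749.7 CPM in the tRA mice. As for Ccr7, the highest tRA mouse was replicate 1 and the lower pair was replicates 3 and 4. Fos, listed first and the most abundant, had 3563, 2762, 1117 and 1420.2 CPM in tRA mice 1 to 4, and Klf2, Cxcr4 and Maff, given above, were also lowest in replicates 3 and 4. The part of these genes' levels in the spread of Ccr7 was not tested.

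Annotated transcripts overlap 5 of the 9 genes, among them Bach2os on the other strand of Bach2 (6.33 CPM over the 8 mice, beside 167 CPM for Bach2), E430014B02Rik on the same strand as Satb1 (6.21 CPM beside 431 CPM) and A630014C17Rik on the other strand of Tcf7 (2.05 CPM beside 441 CPM). Whether the counting used the strand is not given in the sources used here, and without it reads of a gene and of its antisense partner cannot be told apart. In counts, each overlapping transcript was under the gene it overlaps in these 3 cases.

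Retinoic acid receptors bind DNA, and the windows around the starts of these genes were searched for letters of the receptors' core motif and of the 2 factor families among the 9 genes. RefSeq windows (GRCm38.p6) of 250 bases before to 50 bases after each start were found for 8 of the 9 genes, 16 windows in all, and Ccr7 had no entry. A start here is that of the RefSeq window, which can lie inside the gene. The only windows of Bach2 and Il7r lay wholly inside the annotated genes, so the stretch before the annotated start of each was not searched. The motifs were AGGTCA, the core hexamer of retinoic acid receptor sites, its direct repeats spaced by 1, 2 or 5 bases, GTAAACA for FOXO factors and CTTTGA for TCF and LEF factors, each on both strands. The direct repeats contain the hexamer, and no matches of different motifs overlapped in the windows of the 9 genes.

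AGGTCA was present in 2 of the 16 windows, 1 each of Tcf7 and Satb1, beside 5340 of 32851 windows of all genes (16.3%). GTAAACA was also present in 2 of the 16, 1 each of Dapl1 and Tcf7, beside 1199 windows (3.65%). CTTTGA was present in 2 of the 16, 1 each of Lef1 and Bach2, beside 5257 windows (16%). The direct repeats were found in 0 of the 16 windows, beside 13 windows of all genes for a spacing of 1 (0.0396%) and 3 each for spacings of 2 and 5 (0.00913%). A match is a description of the letters and not a bound site. The stretches upstream of the starts that hold a match are shown to let the letters be read in place, 5′ to 3′ on the strand of the gene, in lower case with the motif in capitals, so that a match on the opposite strand reads as TGACCT or TCAAAG. They are chr11:52282596-52282695 (minus strand, 100 bases, within an intron of Tcf7), chr17:51826589-51826688 (minus strand, 100 bases, within an exon of a Satb1 transcript, with no coding sequence annotated there), chr2:59484403-59484652 (plus strand, upstream of the gene), chr3:131156044-131156293 (plus strand, within an intron of Lef1) and chr4:32417185-32417434 (plus strand, within an intron of Bach2).
Tcf7: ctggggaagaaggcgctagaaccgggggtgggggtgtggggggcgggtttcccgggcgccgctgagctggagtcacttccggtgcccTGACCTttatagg
Satb1: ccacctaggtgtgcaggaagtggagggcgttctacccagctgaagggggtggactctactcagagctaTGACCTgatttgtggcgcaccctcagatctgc
Dapl1: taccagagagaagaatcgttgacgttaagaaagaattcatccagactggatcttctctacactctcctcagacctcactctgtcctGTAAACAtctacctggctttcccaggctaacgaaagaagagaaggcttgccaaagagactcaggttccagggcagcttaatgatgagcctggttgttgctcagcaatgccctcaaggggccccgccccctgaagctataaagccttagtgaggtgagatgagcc
Lef1: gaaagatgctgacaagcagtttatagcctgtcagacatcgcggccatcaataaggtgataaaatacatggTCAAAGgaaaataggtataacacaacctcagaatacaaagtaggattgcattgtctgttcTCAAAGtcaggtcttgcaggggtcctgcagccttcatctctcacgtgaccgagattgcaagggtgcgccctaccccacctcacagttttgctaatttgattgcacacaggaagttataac
Bach2: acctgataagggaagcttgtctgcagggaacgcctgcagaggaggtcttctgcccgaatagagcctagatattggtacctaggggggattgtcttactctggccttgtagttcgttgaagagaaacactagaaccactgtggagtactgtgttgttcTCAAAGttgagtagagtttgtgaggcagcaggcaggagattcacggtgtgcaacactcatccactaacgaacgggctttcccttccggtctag
In Tcf7 the hexamer began 13 bases before the start, and the GTAAACA match began at base 2 after it and is not shown. In Satb1 the hexamer began 32 bases before the start, in Dapl1 GTAAACA began 164 bases before it, in Lef1 the 2 matches of CTTTGA began 180 and 120 bases before it, and in Bach2 the match began 93 bases before it.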

How the data were processed

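The authors deposited raw counts per gene for each of 8 mice (51826 Ensembl genes). The paper names ea-utils, Btrim, Bowtie2, Tophat2 and HTSeq, whereas the submitters' processing notes list STAR 2.5.2b, featureCounts 1.5.1, DESeq2 1.26.0 and GRCm38. Which of these made the counts is not given in the sources used here. Libraries were made with TruSeq v2. A deposited table of the authors' own fold changes and adjusted p-values was not used here.

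Symbols and positions came from GENCODE M21 (GRCm38), which holds 51633 of the identifiers. The main fit used edgeR 4.0.16 under R 4.3.3 (TMM, filterByExpr with a minimum of 10 counts, quasi-likelihood test of tRA against control, Benjamini-Hochberg over 16484 genes, FDR under 0.1), and figures were drawn in Python 3.11.15 with matplotlib 3.10.9. Confidence intervals of 95% used the degrees of freedom of the quasi-likelihood fit. The biological coefficient of variation was 0.152. No pair of mice within a group agreed within the sampling noise of counts, as a library deposited more than once would (chi-square per degree of freedom from 12.9 to 65.4).

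As alternatives, the counts were fitted by DESeq2 1.42.0 and limma-voom (limma 3.58.1), with RLE size factors or unadjusted library sizes, with every gene that had a count or only genes with 10 counts in each library, with a block for the replicate number, with the pan-T cell mean as a covariate, and without each mouse in turn. The members and lists were chosen with earlier results of these data known. Named are all 9 genes, in each pathway list the most abundant gene, the largest estimate in each direction and every gene at an unadjusted p under 0.05, in each marker list the most abundant gene and the gene listed first, and list genes at 0 counts in a group. Some genes of the lists first drawn up are not reported here, and the counts, medians and sums of those lists leave them out.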

Additional observations from a re-analysis of the deposited data

Results flagged for a closer look

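Among 56 groups of 4 mice examined, the 9 genes, their sum and the summed level of each of 18 lists in both groups, 3 had a mouse far from the other 3. Chance flags about 1 in 20 groups, or 2.8 of 56. Dapl1 stood at 23.8 CPM in tRA replicate 3, while the other 3 tRA mice had 30.7 to 31.9 CPM. The summed level of the plasma cell genes was 1292 CPM in control replicate 4, while the other 3 control mice had 1088 to 1114 CPM. The summed level of the lymphoid homing genes was 5078 CPM in control replicate 1, while the other 3 control mice had 4043 to 4212 CPM.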

How the results depend on the processing

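Under 16 alternatives, 8 with all mice and 8 with 1 mouse left out, 0 of the 9 genes were called. The number of genes of the whole table at an FDR under 0.1 was 0 with edgeR, 27 with DESeq2, 1 with limma-voom, 6 with no filter on low counts and 0 to 3 with 1 mouse left out, and the cause was not tested. The number at an unadjusted p under 0.05 was 1070, and 657 (without tRA replicate 4) to 2105 (without tRA replicate 1) with 1 mouse left out. Of the 9 genes, 2 were at an unadjusted p under 0.05, and 3 with the pan-T covariate, beside 1313 of all genes in that fit. With 1 mouse left out the count was 0 to 3 (0 without control replicate 3 or tRA replicate 4, 3 without tRA replicate 1). Their median log2 fold change was 0.030, and 0.0015 to 0.13 with 1 mouse left out.

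Tcf7, Il7r and Bach2 were above 0 in every alternative run, and Bach2 was 0.28 with the pan-T covariate. With 1 mouse left out, the log2 fold changes ran from -0.13 to 0.077 for Lef1, -0.35 to 0.17 for Ccr7, -0.0059 to 0.13 for Satb1, -0.023 to 0.091 for Foxo1, -0.030 to 0.12 for Dapl1, -0.044 to 0.083 for Igfbp4, -0.0052 to 0.10 for Jak1 and -0.15 to 0.039 for Pdpk1. With all mice, Lef1 was -0.0010 under the stricter filter (10 counts in each library), -0.0094 with limma-voom and -0.084 with the pan-T covariate. Ccr7 was -0.083 with limma-voom and -0.019 with the pan-T covariate, and Dapl1 was -0.030 with the latter.

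With the replicate number as a block, Lef1 was -0.0093, Ccr7 -0.082 and the stromal median -0.016, and 0 genes were at an FDR under 0.1, as without it. The block also moved the immediate early median to -0.77, Maff to -1.25 and the erythroid median to 0.13. Same-numbered mice correlated in their deviations from the group means by -0.023 to 0.26, and 3 of 8 mice correlated best with their own number, which does not settle whether the numbers pair the mice. Of 832 alternative values, 790 kept their direction and side of the threshold or moved by less than the replicate spread, or by less than 1.5 times for counts. Among the list medians near 0, that of the other quiescence regulators was -0.068 without tRA replicate 1, and those of effector, B cell and natural killer cell genes were 0.051, 0.071 and 0.071 without control replicates 2, 1 and 3. The lowest count of the 9 genes in any mouse was 875, for Dapl1.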
